A study of Mus musculus with 11 samples.

Results

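The genes described here code for the extracellular matrix and for the metalloproteases that cut it. The rule for membership reads gene symbols only: collagens, laminin chains, nidogens, fibulins, fibrillins, fibronectin, thrombospondins, tenascins, lecticans, link proteins, Sparc and Sparcl1, 3 small leucine-rich proteoglycans, and the Mmp, Timp and Adamts families. Of 37991 genes in the authors' table, 127 met this rule, and 85 of the 127 had at least 1 CPM (reads of a gene scaled to the size of the library) in 2 or more libraries and could be tested. The other 42 stayed near or under 1 CPM.

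RNA sequencing had given 11 libraries of cells grown from the frontal cortex of C57BL/6J mouse embryos (stage E14.5). NSC (3 libraries) was taken at day 0, from neural stem cells expanded in a proliferation medium. The other groups were taken at day 4, after the cells, on flasks with the coating labelled PDL/LMN, had been moved to an astrocyte medium (DMEM, 1% fetal bovine serum and the N-2 supplement at 1%; Astrocyte, 3 libraries), a neuron medium (B-27 at 2% in Neurobasal; Neuron, 3 libraries) or that same neuron medium with the thyroid hormone T3 added at 30 ng/mL (Oligodendrocyte, 2 libraries). No alleles or transgenes are named in the labels, the 3 day 4 media all held GlutaMAX-1, and the group names give the medium a culture received, not the cells it held. No culture stayed in the proliferation medium until day 4, so the change of medium and the time in culture cannot be told apart in any comparison with NSC.

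Brain matrix has little of the fibrillar collagen that fills connective tissue. It is built on hyaluronan, to which the lectican proteoglycans bind, held by link proteins and joined through tenascins, while basement membranes of laminin, type IV collagen and nidogen line vessels and the brain surface and also reach the niche of neural stem cells. Matrix metalloproteases (Mmp) and the Adamts proteases cut these molecules, and the Timp proteins inhibit them.

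The estimated depth was 49.3 to 66.2 M reads a library, so 1 read was worth 0.0151 to 0.0203 CPM. Members summed to 0.555% ± 0.0136 (n = 3, SD) of the listed CPM in NSC, 0.562% ± 0.00344 (n = 3, SD) in Astrocyte, 0.661% ± 0.0442 (n = 3, SD) in Neuron and 0.560% ± 0.00126 (n = 2, SD) in Oligodendrocyte, a sum in which long transcripts weigh more. Neuron replicate 2 stood apart: it had the lowest value of its group in 58 of the 85 tested members (68.2%), against 49.4% of all tested genes. Some of the results that rest on it are given with and without it. The labels call the libraries biological replicates, and nothing says that they came from separate cultures or animals, so p-values measure only the spread between these samples. Marker genes of several cell types were found in each day 4 group. Summed astrocyte markers were at 14186 to 15683 CPM in Astrocyte but also at 8989 to 9828 CPM in Neuron. Gfap weighed most in this sum, with a mean of 7631 CPM in Astrocyte and 2647 CPM in Neuron. Aqp4 and Gja1 were also higher in Astrocyte than in Neuron by group means, while Aldh1l1, Slc1a2, Slc1a3, Aldoc and S100b were higher in Neuron. Mature oligodendrocyte markers were at 2515 to 2884 CPM in Oligodendrocyte and at 2591 to 2777 CPM in Neuron. Summed neuron markers rose from 28.9 to 30.1 CPM in NSC to 146 to 263 CPM at day 4, with overlapping ranges in Astrocyte and Neuron. Dcx weighed most in this sum at day 4, with means of 125, 148 and 86.6 CPM in Astrocyte, Neuron and Oligodendrocyte and 1.6 CPM in NSC. Tubb3, Rbfox3, Stmn2 and Snap25 also had higher means in each medium than in NSC. Syt1 was lower than in NSC in Astrocyte and Oligodendrocyte, and Gad1 was lower in Oligodendrocyte. Summed oligodendrocyte precursor markers were lowest in Astrocyte (707 to 794 CPM, against 1335 to 2161 CPM in the others). Summed neural progenitor markers were highest in NSC (4984 to 5456 CPM, against 2560 to 4280 CPM). Both sums hide opposite moves. By group means, Pdgfra, Sox10 and Gpr17 were higher in Astrocyte than in NSC, and Cspg4, Olig1 and Olig2 were lower. Likewise Sox2, Vim, Pax6 and Prom1 were higher in Astrocyte than in NSC, and Nes, Fabp7, Hes1 and Hes5 were lower.

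The first question was how far the matrix genes moved between day 0 and day 4. Most did, in both directions. A change is given as a difference between group means of log2(CPM + 1), a scale on which low genes appear to change less than they did. A gene is called at an adjusted p under 0.05, from limma with Benjamini-Hochberg adjustment over all 13342 genes tested in that comparison. In Astrocyte vs NSC 77 of the 85 tested members were called (83.6% of all tested genes were), 50 higher (48% of all genes) and 27 lower (35.6%). In Neuron vs NSC the numbers were 75 called (83.1% of all), 41 higher (43.5%) and 34 lower (39.6%). In Oligodendrocyte vs NSC they were 80 called (80.2% of all), 51 higher (48.1%) and 29 lower (32.2%). A share of calls this close to that of all genes says little about matrix genes, and the size of the changes says more. Changes of at least 2-fold were found in 36 members higher (21.4% of all genes) and 17 lower (12.3%) in Astrocyte vs NSC, in 31 higher (17.9%) and 19 lower (13.8%) in Neuron vs NSC, and in 35 higher (21.2%) and 19 lower (10.7%) in Oligodendrocyte vs NSC. The median absolute log2 fold change of the tested members was 1.35, 1.30 and 1.44 in these comparisons, and that of all tested genes 0.66, 0.65 and 0.64.

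A member that passed the filter only because 1 group expressed it had to differ, and 5 did so (Hapln1 and Adamts15 in Astrocyte, Acan in Oligodendrocyte, Lama1 and Col28a1 in NSC; 5.88% of tested members, 3.33% of all tested genes). Among the 54 members that reached 1 CPM in every group, 61.1%, 64.8% and 64.8% changed at least 2-fold against NSC in Astrocyte, Neuron and Oligodendrocyte. The shares of the 11453 genes of that kind in the whole table were 30.5%, 30.0% and 29.2%. The members' median log2 fold change was 0.60 for Astrocyte, 0.20 for Neuron and 0.83 for Oligodendrocyte, all vs NSC. The table as a whole shifted by 0.15, 0.056 and 0.19, and median-of-ratios scaling brought that to 0.013, 0.016 and 0.015. The members' own medians then were 0.49, 0.20 and 0.70, and with quantile normalization 0.20, -0.038 and 0.35, so that the sign for Neuron turned and the others shrank by more than 1.5 times.

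The cultures at day 4 were then compared with each other. Calls numbered 73 members in Astrocyte vs Neuron (62.2% of all genes; 44 higher, 40.3%, and 29 lower, 22%), 63 in Oligodendrocyte vs Neuron (67.5%; 41 higher, 43.9%, and 22 lower, 23.6%) and 70 in Oligodendrocyte vs Astrocyte (52.2%; 36 higher, 28.7%, and 34 lower, 23.5%). Changes of at least 2-fold were seen in 20 members higher (6.39%) and 11 lower (2.95%) in Astrocyte vs Neuron, in 22 higher (8.96%) and 12 lower (3.58%) in Oligodendrocyte vs Neuron, whose media differed by T3, and in 15 higher (4.53%) and 9 lower (3.41%) in Oligodendrocyte vs Astrocyte. The balance of directions moved with the scaling: in Oligodendrocyte vs Neuron it was 36 higher and 29 lower with median-of-ratios scaling and 35 and 29 with quantile normalization, and in Astrocyte vs Neuron the 2-fold changes were 16 higher and 15 lower with quantile normalization.

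**Figure D1:**
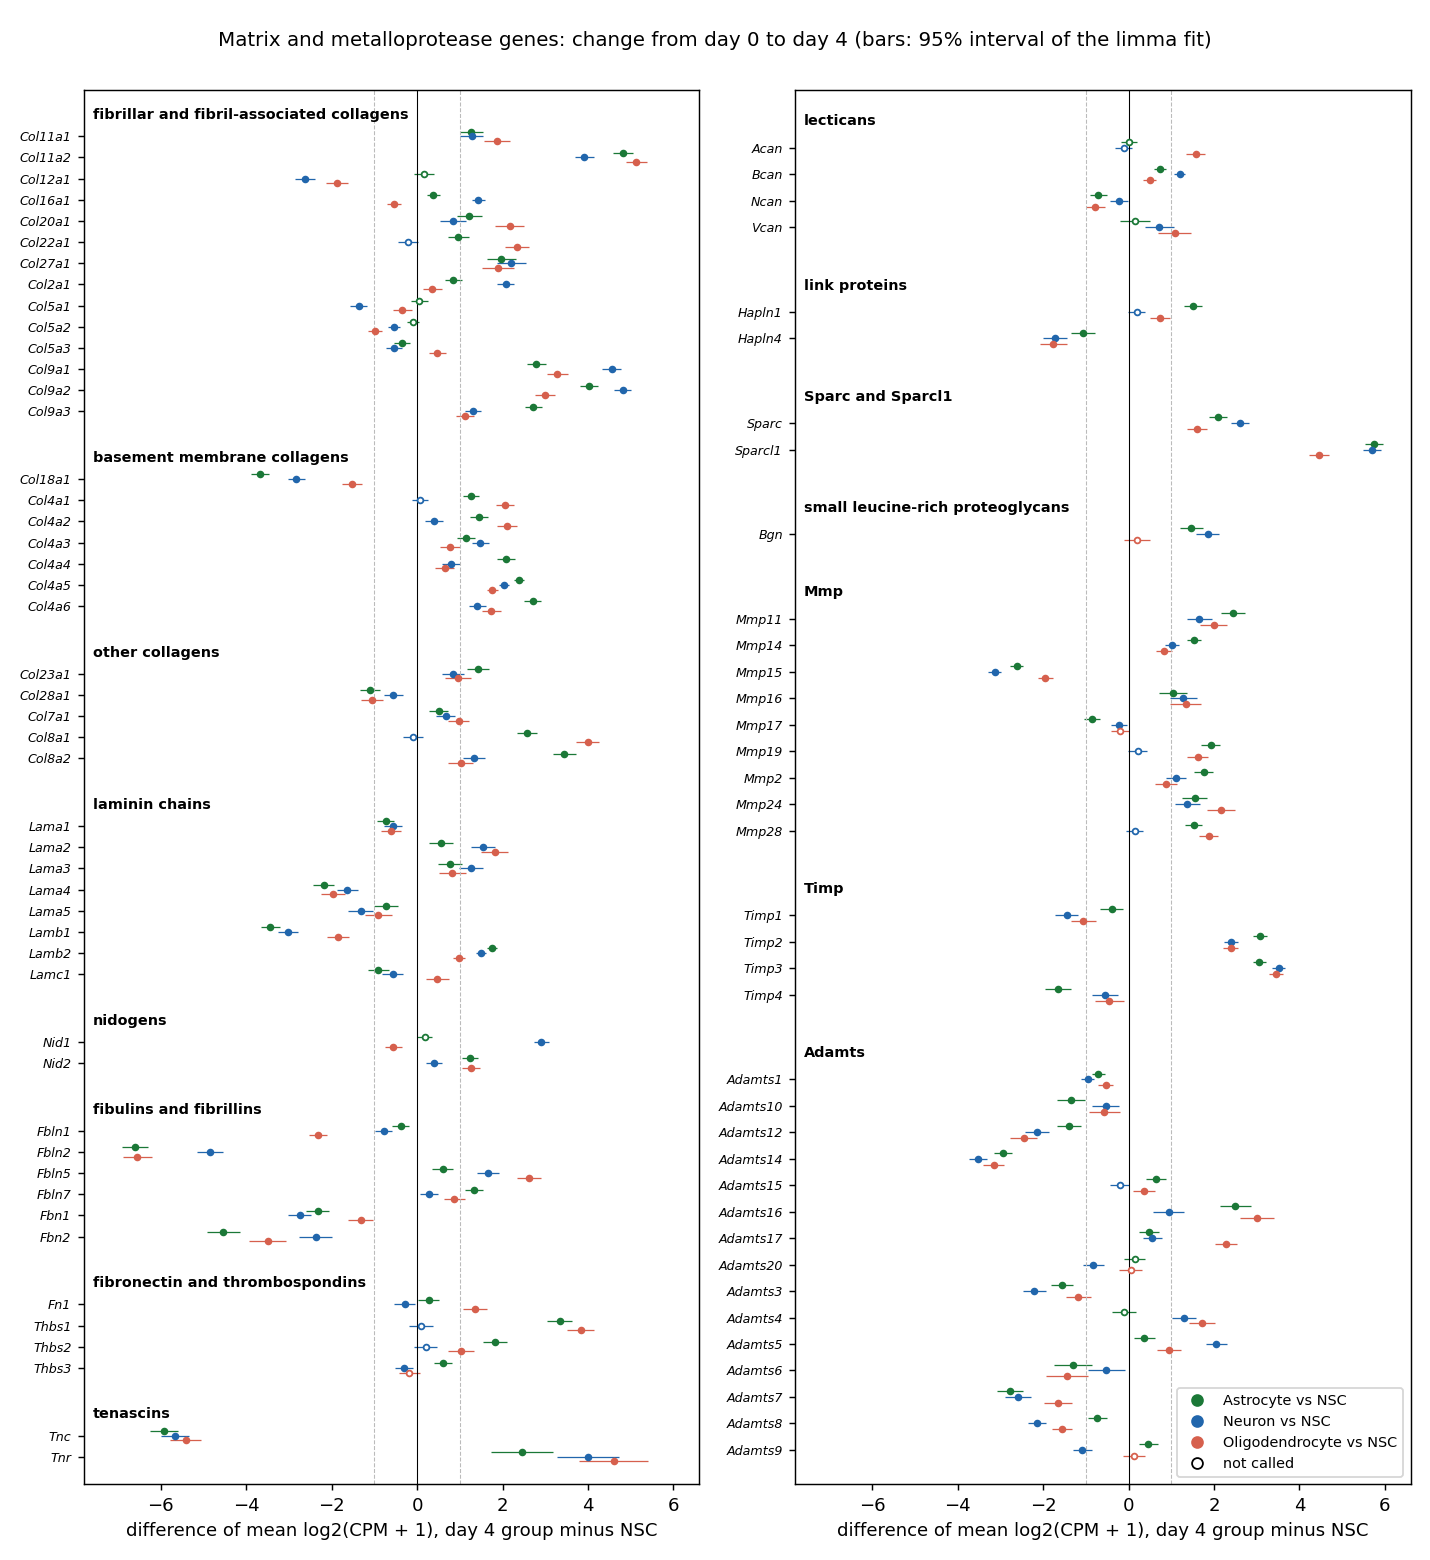
Change of each of the 85 tested members from day 0 to day 4, by role, as the difference of mean log2(CPM + 1) from NSC (x axis) for Astrocyte (green), Neuron (blue) and Oligodendrocyte (red). Bars are 95% intervals of the limma fit, filled points are called, open points are not, and dashed lines mark 2-fold. Sparcl1, Col11a2 and Tnr lie far right and Tnc, Fbln2 and Fbn2 far left for all 3 media.

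Much of the change was common to the 3 media, which share the NSC libraries as their reference. Of the 85 tested members, 36 were called higher in all 3 (34.4% of all genes) and 24 lower in all 3 (25.9%). At least 2-fold in each medium, 17 were higher (11.8%) and 13 lower (7.65%). The 17 were Tnr, Sparc, Sparcl1, Timp2, Timp3, Mmp11, Mmp16, Mmp24, Col4a5, Col4a6, Col8a2, Col9a1, Col9a2, Col9a3, Col11a1, Col11a2 and Col27a1. The 13 were Tnc, Fbln2, Fbn1, Fbn2, Lama4, Lamb1, Col18a1, Hapln4, Mmp15, Adamts3, Adamts7, Adamts12 and Adamts14. Cell-cycle markers fell with them: the 8 on the list were called lower in every medium, and their sum went from 4526 to 4610 CPM in NSC to 137 to 236 CPM at day 4. The part of dividing cells in the matrix changes was not tested. Fewer cells of a type and less RNA per cell cannot be told apart in these bulk samples.

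Promoter sequences are shown for 6 members, chosen because the results turn on them: Tnc and Fbln2, the largest falls, Timp2 and Timp3, inhibitors that rose in every medium, and Nid1 and Col8a1, highest in Neuron and in Oligodendrocyte. Each is the 250 bases before the gene's start, on the gene's own strand, from RefSeq (build GRCm38.p6), in which 91 of the 127 members were matched. For a gene with several annotated starts the most upstream was taken, which need not be the start used in these cells. Capitals mark matches to 6 motifs searched on both strands: the GC box GGGCGG, the CCAAT box CCAAT, the TATA box TATAAA, the AP-1 site TGANTCA, the nuclear receptor half-site AGGTCA and the NFI half-site TTGGC. The windows lie at chr4:64047016-64047265 (minus strand, Tnc), chr6:91212514-91212763 (plus, Fbln2), chr11:118355412-118355661 (minus, Timp2), chr10:86300162-86300411 (plus, Timp3), chr13:13437352-13437601 (plus, Nid1) and chr16:57754738-57754987 (minus, Col8a1).
Tnc: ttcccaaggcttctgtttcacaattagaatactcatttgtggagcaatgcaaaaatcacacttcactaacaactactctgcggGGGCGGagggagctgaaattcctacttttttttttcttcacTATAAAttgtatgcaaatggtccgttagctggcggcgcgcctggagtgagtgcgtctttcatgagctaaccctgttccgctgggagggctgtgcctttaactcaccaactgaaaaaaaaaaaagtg
Fbln2: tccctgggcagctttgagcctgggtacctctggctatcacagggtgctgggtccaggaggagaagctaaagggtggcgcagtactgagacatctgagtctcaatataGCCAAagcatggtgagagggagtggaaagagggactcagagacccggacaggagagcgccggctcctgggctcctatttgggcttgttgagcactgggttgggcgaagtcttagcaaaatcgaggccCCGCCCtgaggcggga
Timp2: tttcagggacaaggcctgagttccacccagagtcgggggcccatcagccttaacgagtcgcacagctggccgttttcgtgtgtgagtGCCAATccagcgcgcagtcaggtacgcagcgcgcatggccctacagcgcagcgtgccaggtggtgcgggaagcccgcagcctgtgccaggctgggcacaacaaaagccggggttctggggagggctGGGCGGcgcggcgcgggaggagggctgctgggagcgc
Timp3: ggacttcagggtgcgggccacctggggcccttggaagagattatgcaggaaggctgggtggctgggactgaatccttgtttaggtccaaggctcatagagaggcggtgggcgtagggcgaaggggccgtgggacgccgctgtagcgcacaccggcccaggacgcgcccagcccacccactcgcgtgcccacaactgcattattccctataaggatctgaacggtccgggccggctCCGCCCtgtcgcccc
Nid1: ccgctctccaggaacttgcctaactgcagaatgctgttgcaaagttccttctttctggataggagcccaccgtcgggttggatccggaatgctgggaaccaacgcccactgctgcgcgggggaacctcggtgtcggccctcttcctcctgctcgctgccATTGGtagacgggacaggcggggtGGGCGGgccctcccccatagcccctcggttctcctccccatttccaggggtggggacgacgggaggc
Col8a1: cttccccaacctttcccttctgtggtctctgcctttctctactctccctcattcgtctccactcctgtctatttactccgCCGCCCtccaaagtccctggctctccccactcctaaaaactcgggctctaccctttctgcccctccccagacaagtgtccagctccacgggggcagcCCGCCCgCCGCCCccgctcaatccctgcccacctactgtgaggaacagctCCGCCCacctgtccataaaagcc

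Each of the 6 windows held a GC box, with 1 match in every gene but Col8a1, which had 4. The GC box was present in 33.0% of all 27025 windows of this length, in 56.0% of the 91 member windows and in 71.9% of those of the 57 matched members that were tested. The 57 had passed the filter on CPM, while the 27025 windows were not filtered. No share over all tested genes was computed, so the part of the filter in such differences was not tested. The windows of members had a median GC content of 58.8%, against 52% in all, and the GC box is made of G and C alone. Tnc was the only gene of the 6 with the TATA box letters, which 12.98% of all windows held, and its GC content was 44.8%. These letters lay at -126 to -121 from the start taken. Timp2 and Nid1 had a CCAAT box (34.5% of all windows), which in Timp2 overlapped the NFI half-site, and Fbln2 had an NFI half-site (41.9% of all windows). None of the 57 held the AP-1 letters (6.85% of all windows and 6.59% of the 91 member windows), and none of the 6 shown held AGGTCA (13.8% of all windows). A match is a description of letters, not a site of binding.

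Tenascins are large glycoproteins that bind lecticans and cell surfaces, and the 2 detected members traded places. Tnc, the tenascin of germinal zones and glial progenitors (chromosome 4, 63620819 to 63681760, build mm9), had 953, 1037 and 967 CPM in NSC, 12, 16.7 and 17.2 CPM in Astrocyte, 21.1, 13.6 and 21.2 CPM in Neuron, and 21.6 and 22.7 CPM in Oligodendrocyte. Every NSC library lay far above every day 4 library. Its log2 fold change was -5.93 (SE 0.151, adjusted p 2.92e-13) in Astrocyte, -5.68 (SE 0.151, adjusted p 4.76e-13) in Neuron and -5.41 (SE 0.168, adjusted p 3.17e-12) in Oligodendrocyte. Among day 4 groups the differences were small, and the only call, in Oligodendrocyte vs Astrocyte (0.52, SE 0.168, adjusted p 0.019), was lost without Astrocyte replicate 1 (adjusted p 0.0723), without either Oligodendrocyte library (0.0665 and 0.11) and with no filter (0.0601). Without Neuron replicate 2, Tnc was lower in Astrocyte than in Neuron (log2 fold change -0.46, adjusted p 0.00103), compared with -0.26 with it (adjusted p 0.152).

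Tnr, the tenascin of perineuronal nets that oligodendrocyte-lineage cells are known to make (chromosome 1, 161667641 to 161855053), had 18.5, 20.9 and 15.03 CPM in NSC, 129, 109 and 77.2 CPM in Astrocyte, 497, 145 and 378 CPM in Neuron, and 426 and 500.3 CPM in Oligodendrocyte. All day 4 libraries were above all NSC libraries, and Neuron replicate 2 was well below the other 2 of its group. The rise was 2.45 (SE 0.335, adjusted p 1.17e-05) in Astrocyte, 3.99 (SE 0.335, adjusted p 7.58e-08) in Neuron and 4.61 (SE 0.374, adjusted p 6.39e-08) in Oligodendrocyte. Without Neuron replicate 2 the rise in Neuron was 4.52 (adjusted p 1.14e-13). Astrocyte was lower than Neuron (-1.54, adjusted p 0.00128, and -2.07 without that library) and than Oligodendrocyte. Neuron and Oligodendrocyte overlapped and were not called (0.61, SE 0.374, adjusted p 0.162), but this difference rests on single Neuron libraries: it was 0.98 and called without replicate 1 (adjusted p 0.022) and 0.090 without replicate 2 (adjusted p 0.673). The within-library log2 ratio of Tnr over Tnc was -5.70 ± 0.188 (n = 3, SD) in NSC and 2.68 ± 0.612 (n = 3, SD), 3.97 ± 0.598 (n = 3, SD) and 4.32 ± 0.116 (n = 2, SD) in Astrocyte, Neuron and Oligodendrocyte. Mature oligodendrocyte markers, at 71.7 to 79.7 CPM in NSC and 430 to 547 CPM in Astrocyte, were also lowest and next lowest in those groups, and their part in the Tnr values was not tested.

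**Figure D2:**
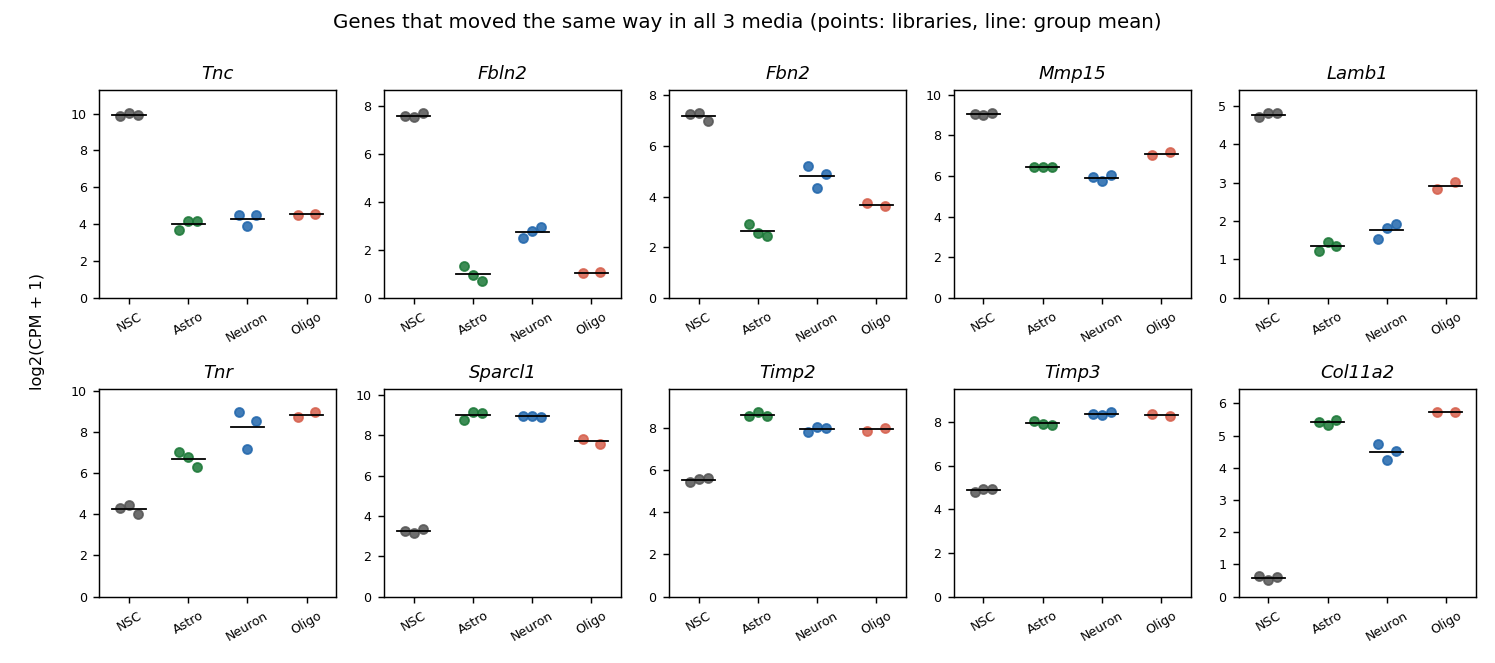
Levels of 10 members that moved the same way in all 3 media, as log2(CPM + 1) on the y axis, with 1 point per library and a line at the group mean. NSC libraries lie above all day 4 libraries for Tnc, Fbln2, Fbn2, Mmp15 and Lamb1, and below them for Tnr, Sparcl1, Timp2, Timp3 and Col11a2.

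The lecticans moved less than the tenascins, and each in its own way. Bcan (brevican, the brain-restricted lectican) had 343, 332 and 362 CPM in NSC, 546, 566 and 605 CPM in Astrocyte, 777, 796 and 800 CPM in Neuron, and 506 and 467 CPM in Oligodendrocyte. No day 4 library fell to the NSC range, and Neuron was highest. Its log2 fold change was 0.73 (SE 0.064, adjusted p 1.26e-07) in Astrocyte, 1.19 (SE 0.064, adjusted p 6.65e-10) in Neuron and 0.49 (SE 0.072, adjusted p 2.46e-05) in Oligodendrocyte. Ncan (neurocan, a lectican of the developing brain) had 550.2, 568 and 543 CPM in NSC, 356, 342 and 314 CPM in Astrocyte, 502, 397 and 531 CPM in Neuron, and 321 and 322 CPM in Oligodendrocyte. It was lower in Astrocyte (-0.71, SE 0.093, adjusted p 7.11e-06) and Oligodendrocyte (-0.78, SE 0.104, adjusted p 9.96e-06), with every library under those of NSC. In Neuron it was -0.23 (adjusted p 0.0363), a call lost without Neuron replicate 2 (log2 fold change -0.10, adjusted p 0.152), when any 1 of the NSC libraries was left out (adjusted p 0.059 to 0.0953) and with quantile normalization (adjusted p 0.149).

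Vcan (versican, which binds hyaluronan around migrating precursors) had 60.6, 60.1 and 52.01 CPM in NSC, 67.1, 60.1 and 64.5 CPM in Astrocyte, 119.7, 66.6 and 107 CPM in Neuron, and 126 and 119 CPM in Oligodendrocyte. Astrocyte overlapped NSC, while Neuron and Oligodendrocyte lay above it. Its log2 fold change was 0.71 (SE 0.158, adjusted p 0.000855) in Neuron and 1.08 (SE 0.176, adjusted p 7.14e-05) in Oligodendrocyte, and 0.15 in Astrocyte (adjusted p 0.389). Without Neuron replicate 2 the value for Vcan in Neuron was 0.97. Acan (aggrecan, the lectican of cartilage and perineuronal nets) had 0.29, 0.1 and 0.15 CPM in NSC, 0.18, 0.12 and 0.25 CPM in Astrocyte, 0.06, 0.13 and 0.07 CPM in Neuron, and 2.59 and 2.4 CPM in Oligodendrocyte. Only the 2 Oligodendrocyte libraries reached 1 CPM, so the gene passed the filter through that group alone and its level there is given with no test. Hapln1, a link protein that ties lecticans to hyaluronan, had 0, 0.02 and 0.03 CPM in NSC, 1.61, 2.24 and 1.86 CPM in Astrocyte, 0.22, 0.09 and 0.18 CPM in Neuron, and 0.72 and 0.66 CPM in Oligodendrocyte. It passed the filter through Astrocyte alone, and its level there is likewise given with no test. Hapln4, another link protein of perineuronal nets, went the other way, from 7.403 ± 0.503 CPM (n = 3, SD) in NSC to 3.04 ± 0.516 CPM (n = 3, SD) in Astrocyte, 1.57 ± 0.469 CPM (n = 3, SD) in Neuron and 1.47 ± 0.148 CPM (n = 2, SD) in Oligodendrocyte.

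Fibulins and fibrillins build elastic fibres and microfibrils, and fibulin-2 also binds basement membrane proteins. Among the 6, all of them tested, 4 were called lower and 2 higher in each medium against NSC (35.6%, 39.6% and 32.2% of all genes were lower in Astrocyte, Neuron and Oligodendrocyte, and 48%, 43.5% and 48.1% higher), Neuron with median-of-ratios scaling (1 higher) and Astrocyte and Neuron with quantile normalization (1 higher each) aside. Fbln2 (chromosome 6, 91162449 to 91222534) had 187, 183 and 204 CPM in NSC, 1.5, 0.92 and 0.62 CPM in Astrocyte, 4.63, 5.82 and 6.61 CPM in Neuron, and 1.04 and 1.07 CPM in Oligodendrocyte. The day 4 libraries did not come near the NSC range. The libraries of Neuron lay above those of both other media: the log2 difference to Neuron was -1.74 (SE 0.142, adjusted p 2.19e-07) in Astrocyte and -1.69 (SE 0.159, adjusted p 7.58e-07) in Oligodendrocyte. Against NSC it was -6.60 (SE 0.142, adjusted p 7.65e-14) in Astrocyte, -4.86 (SE 0.142, adjusted p 1.28e-12) in Neuron and -6.55 (SE 0.159, adjusted p 3.86e-13) in Oligodendrocyte.

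Fbn2, a microfibril protein typical of embryonic tissue, had 152, 156 and 127 CPM in NSC, 6.52, 4.94 and 4.49 CPM in Astrocyte, 36.1, 19.1 and 28.8 CPM in Neuron, and 12.52 and 11.2 CPM in Oligodendrocyte. It fell in every medium, most in Astrocyte (-4.54, SE 0.181, adjusted p 2.54e-11) and least in Neuron (-2.37, SE 0.181, adjusted p 2.73e-08; -2.13 without Neuron replicate 2), and no 2 groups overlapped. Fbn1, the fibrillin of later tissue, had 55.8, 56.3 and 49.5 CPM in NSC, 9.57, 11.4 and 9.03 CPM in Astrocyte, 8.24, 5.52 and 8.11 CPM in Neuron, and 21.3 and 20.5 CPM in Oligodendrocyte. It fell too, at -2.32 (SE 0.125, adjusted p 6.02e-10) in Astrocyte, -2.74 (SE 0.125, adjusted p 1.12e-10) in Neuron and -1.32 (SE 0.139, adjusted p 9.59e-07) in Oligodendrocyte. The log2 ratio of Fbn1 over Fbn2 was -1.41 ± 0.0604 (n = 3, SD) in NSC, -1.78 ± 0.2 (n = 3, SD) in Neuron, 0.81 ± 0.292 (n = 3, SD) in Astrocyte and 0.77 ± 0.0673 (n = 2, SD) in Oligodendrocyte. Astrocyte and Oligodendrocyte thus had lost more Fbn2 than Fbn1, and Neuron had not.

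Fbln1 had 17.4, 17.97 and 17.8 CPM in NSC, 11.4, 13.7 and 15.3 CPM in Astrocyte, 9.74, 10.03 and 9.85 CPM in Neuron, and 2.79 and 2.71 CPM in Oligodendrocyte. Its lowest group was Oligodendrocyte, at -2.32 (SE 0.101, adjusted p 9.08e-11) against NSC and -1.94 (SE 0.101, adjusted p 6.37e-09) against Astrocyte. Fbln5, which helps elastic fibres assemble, had 0.84, 0.82 and 1.25 CPM in NSC, 1.89, 1.8 and 2.25 CPM in Astrocyte, 4.77, 6.23 and 4.67 CPM in Neuron, and 11.1 and 11.1 CPM in Oligodendrocyte. It was highest in Oligodendrocyte (2.62, SE 0.129, adjusted p 3.14e-10 against NSC, 2.02, SE 0.129, adjusted p 3.89e-08 against Astrocyte). Its small rise in Astrocyte (0.60, adjusted p 0.000267) turned to -0.075 with quantile normalization (adjusted p 0.595). Fbln7 rose from 3.97 ± 0.0608 CPM (n = 3, SD) in NSC to 11.6 ± 1.64 CPM (n = 3, SD) in Astrocyte, with 5.03 ± 0.475 CPM (n = 3, SD) in Neuron and 8.11 ± 0.184 CPM (n = 2, SD) in Oligodendrocyte.

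Laminins are trimers of an alpha, a beta and a gamma chain, and the chains did not move together. Of the 8 tested chains, among them Lama1, which passed the filter through NSC alone, 3 were called higher and 5 lower in Astrocyte (48% and 35.6% of all genes) and in Neuron (43.5% and 39.6%), and 4 higher and 4 lower in Oligodendrocyte (48.1% and 32.2%). In Astrocyte quantile normalization left 1 higher and 5 lower. Lamb1 (beta 1) had 25.2, 27.1 and 27.01 CPM in NSC, 1.34, 1.74 and 1.55 CPM in Astrocyte, 1.87, 2.54 and 2.78 CPM in Neuron, and 6.17 and 7.05 CPM in Oligodendrocyte. Lamb2 (beta 2, the chain of mature and synaptic laminins) had 39.2, 40.1 and 42.8 CPM in NSC, 141, 138 and 139.9 CPM in Astrocyte, 117, 111 and 122 CPM in Neuron, and 82.1 and 80.8 CPM in Oligodendrocyte. The beta chains went in opposite directions, with no overlap with NSC for either. The log2 ratio of Lamb2 over Lamb1 was 0.60 ± 0.0482 (n = 3, SD) in NSC, 5.79 ± 0.129 (n = 3, SD) in Astrocyte, 5.12 ± 0.208 (n = 3, SD) in Neuron and 3.44 ± 0.135 (n = 2, SD) in Oligodendrocyte. Lamb1 changed by -3.43 (SE 0.107, adjusted p 2.08e-12) in Astrocyte, and Lamb2 rose by 1.76 (SE 0.056, adjusted p 2.54e-12) there.

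Lamc1 (gamma 1, found in most laminins) had 252, 277 and 242 CPM in NSC, 143, 143 and 125 CPM in Astrocyte, 193, 140.2 and 188 CPM in Neuron, and 330.4 and 385 CPM in Oligodendrocyte. It was lower than NSC in Astrocyte (-0.90, SE 0.111, adjusted p 4.08e-06) and Neuron (-0.57, SE 0.111, adjusted p 0.000297) and higher in Oligodendrocyte (0.47, SE 0.125, adjusted p 0.00321). Without Neuron replicate 2 the value in Neuron was -0.43. The call in Oligodendrocyte was lost when its replicate 2 was left out (log2 fold change 0.36, adjusted p 0.055). Of the alpha chains, Lama4 (typical of vessels) fell from 8.9 ± 0.832 CPM (n = 3, SD) in NSC to between 0.98 and 2.67 CPM in the day 4 libraries. Lama5 fell from 132 ± 4.197 CPM (n = 3, SD) to 79.6 ± 6.48 CPM (n = 3, SD) in Astrocyte, 53.4 ± 12.8 CPM (n = 3, SD) in Neuron and 70.2 ± 0.707 CPM (n = 2, SD) in Oligodendrocyte. Lama2, the alpha chain of muscle and glial basement membranes, rose from 0.76 ± 0.195 CPM (n = 3, SD) to 4.11 ± 0.637 CPM (n = 3, SD) in Neuron and 5.18 ± 0.813 CPM (n = 2, SD) in Oligodendrocyte, and to 1.61 ± 0.322 CPM (n = 3, SD) in Astrocyte. Lama3 rose as well, to 1.68 ± 0.422 CPM (n = 3, SD) in Neuron from 0.117 ± 0.085 CPM (n = 3, SD) in NSC.

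Nidogens link laminin to type IV collagen. Nid1 (chromosome 13, 13529869 to 13604542) had 10, 10.02 and 10.7 CPM in NSC, 11.4, 11.2 and 12.4 CPM in Astrocyte, 86.6, 75.1 and 88.4 CPM in Neuron, and 7.1 and 6.15 CPM in Oligodendrocyte. Neuron stood above every other library, and Oligodendrocyte was the lowest group. The log2 fold change of Neuron over NSC was 2.91 (SE 0.081, adjusted p 7.96e-13). The log2 difference to Neuron was -2.73 (SE 0.081, adjusted p 3.39e-11) in Astrocyte and -3.47 (SE 0.091, adjusted p 1.07e-11) in Oligodendrocyte. Against NSC, Nid1 was 0.17 in Astrocyte (adjusted p 0.0618) and -0.56 in Oligodendrocyte (adjusted p 6.55e-05). Nid2 had 13.6, 13.5 and 13.6 CPM in NSC, 35.4, 33.4 and 31.2 CPM in Astrocyte, 15.8, 20.1 and 18.8 CPM in Neuron, and 35.3 and 32.6 CPM in Oligodendrocyte. It rose most in Astrocyte (1.23, SE 0.084, adjusted p 8.31e-09) and Oligodendrocyte (1.26, SE 0.094, adjusted p 2.72e-08), the groups in which Nid1 was lower than in Neuron. The log2 ratio of Nid1 over Nid2 was therefore 2.13 ± 0.268 (n = 3, SD) in Neuron and -0.38 ± 0.0442 (n = 3, SD), -1.44 ± 0.148 (n = 3, SD) and -2.20 ± 0.0508 (n = 2, SD) in NSC, Astrocyte and Oligodendrocyte. An antisense gene, 2700060E02Rik, at up to 132.8 CPM, overlaps 386 bases of Nid2. Whether the counting used the strand is not given in the sources used here, which leaves the Nid2 values and this ratio uncertain.

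**Figure D3:**
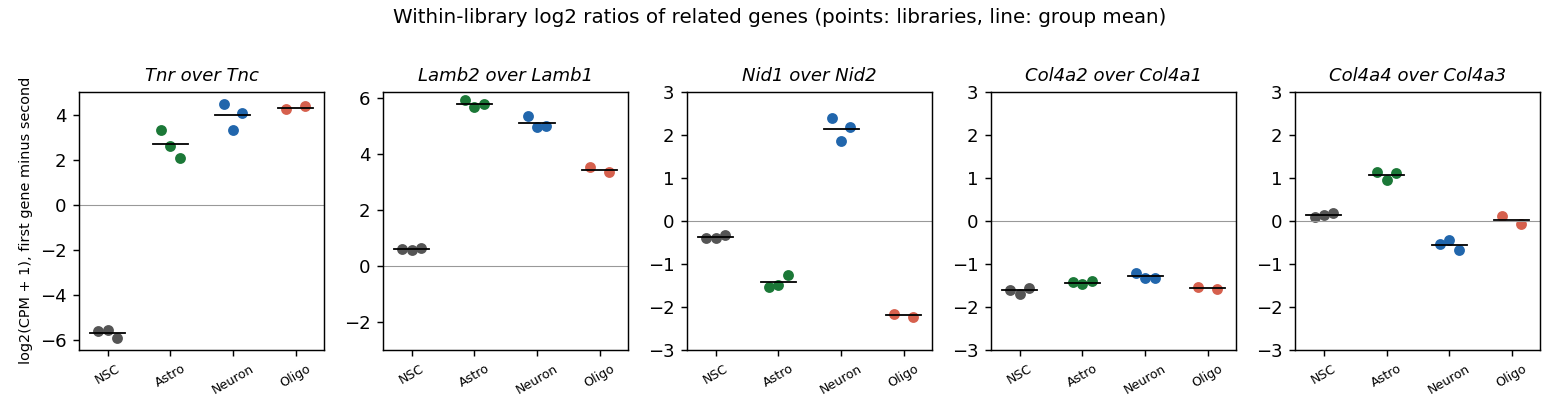
Within-library log2 ratios, as log2(CPM + 1) of the first gene minus that of the second, for 5 pairs of related members, with 1 point per library and a line at the group mean. Tnr over Tnc and Lamb2 over Lamb1 rise from NSC to every day 4 group, Nid1 over Nid2 is above 0 in Neuron alone, and Col4a2 over Col4a1 stays between -1.71 and -1.23 in all libraries.

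Type IV collagen chains are coded by head-to-head gene pairs. Col4a1, a chain of every basement membrane, had 21.04, 23.3 and 25.5 CPM in NSC, 51.9, 61.9 and 58.3 CPM in Astrocyte, 23.8, 23.3 and 26.3 CPM in Neuron, and 92.8 and 107 CPM in Oligodendrocyte. Col4a2, its partner in the trimer, had 6.26, 6.4 and 8 CPM in NSC, 18.5, 21.5 and 21.4 CPM in Astrocyte, 9.62, 8.66 and 9.85 CPM in Neuron, and 31 and 35 CPM in Oligodendrocyte. Both were highest in Oligodendrocyte and next highest in Astrocyte, and Neuron overlapped NSC for Col4a1. The log2 fold change of Col4a1 was 1.27 (SE 0.089, adjusted p 1.06e-08) in Astrocyte, 2.06 (SE 0.099, adjusted p 2.61e-10) in Oligodendrocyte and 0.071 in Neuron (adjusted p 0.463). That of Col4a2 was 1.45, 2.11 and 0.40 (adjusted p 7.49e-09, 5.77e-10 and 0.00188). With the gene bodies overlapping by only 22 bases in mm9, the log2 ratio of Col4a2 over Col4a1 was between -1.71 and -1.23 in all 11 libraries.

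Col4a5, a chain of specialised basement membranes, had 32.8, 34.4 and 32.3 CPM in NSC, 175, 174 and 181 CPM in Astrocyte, 133, 142 and 142 CPM in Neuron, and 118 and 112 CPM in Oligodendrocyte. It rose in every medium, by 2.38 (SE 0.054, adjusted p 1.17e-13) in Astrocyte, 2.03 (SE 0.054, adjusted p 4.84e-13) in Neuron and 1.76 (SE 0.060, adjusted p 8.11e-12) in Oligodendrocyte. Its neighbour Col4a6 went from 6.32 ± 0.421 CPM (n = 3, SD) in NSC to 46.8 ± 1.25 CPM (n = 3, SD) in Astrocyte, 18.5 ± 2.61 CPM (n = 3, SD) in Neuron and 23.4 ± 0.764 CPM (n = 2, SD) in Oligodendrocyte. The log2 ratio of Col4a6 over Col4a5 was -2.22 ± 0.077 (n = 3, SD) in NSC, -1.89 ± 0.0641 (n = 3, SD) in Astrocyte, -2.85 ± 0.21 (n = 3, SD) in Neuron and -2.25 ± 0.00916 (n = 2, SD) in Oligodendrocyte, so Col4a6 lagged behind its neighbour in Neuron. The third pair split between media. Col4a4 had 0.1, 0.17 and 0.13 CPM in NSC, 4.29, 3.55 and 3.53 CPM in Astrocyte, 1.1, 0.85 and 0.93 CPM in Neuron, and 0.9 and 0.65 CPM in Oligodendrocyte, and Col4a3 had 0.03, 0.07 and 0 CPM in NSC, 1.4, 1.35 and 1.1 CPM in Astrocyte, 2.07, 1.54 and 2.08 CPM in Neuron, and 0.76 and 0.74 CPM in Oligodendrocyte. Col4a4 was highest in Astrocyte and Col4a3 in Neuron, so that the log2 ratio of Col4a4 over Col4a3 was 1.07 ± 0.1 (n = 3, SD) in Astrocyte and -0.56 ± 0.109 (n = 3, SD) in Neuron. Col18a1, the collagen that carries the endostatin fragment, was the only tested basement membrane collagen that fell. It had 28.4, 30.7 and 30.4 CPM in NSC, 1.63, 1.3 and 1.32 CPM in Astrocyte, 2.88, 3.72 and 3.48 CPM in Neuron, and 9.02 and 10.5 CPM in Oligodendrocyte. The fall was largest in Astrocyte (-3.67, SE 0.096, adjusted p 3.89e-13) and smallest in Oligodendrocyte (-1.52, SE 0.107, adjusted p 1.43e-08), and Oligodendrocyte stood above Astrocyte by 2.15 (SE 0.107, adjusted p 4.36e-09). The opposite-strand gene Slc19a1, at up to 18.9 CPM, overlaps 8825 bases of Col18a1, which leaves its values uncertain.

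The connective tissue collagens of types I and III were nearly absent, as were Dcn and Lum. In no library did Col1a1 exceed 0.35 CPM, Col1a2 0.14, Col3a1 0.52, Dcn 0.18 or Lum 0.03. Of 10 fibroblast and meningeal markers, 6 were under 0.5 CPM in every library and Slc22a6 and Tcf21 were at 0 in all, while the sum of the 10 was 85.2 to 86.4 CPM in NSC, 90.6 to 92.4 in Astrocyte, 80.6 to 88.6 in Neuron and 37.9 to 46.2 in Oligodendrocyte. The sum hides opposite moves: Pdgfrb, which pericytes also express, averaged 0.263 CPM in NSC, 41.9 in Astrocyte, 37.5 in Neuron and 8.82 in Oligodendrocyte, and Prrx1 averaged 68.8, 39.8, 38.6 and 20.6 CPM in the same order. The part of such cells in the collagen values was not tested. The fibrillar and fibril-associated collagens that were present belonged to the cartilage-type heterofibre, types II, IX and XI, and to smaller families. Of the 14 tested, 10 were called higher and 1 lower in Astrocyte (48% and 35.6% of all genes), 9 higher and 4 lower in Neuron (43.5% and 39.6%), and 10 higher and 4 lower in Oligodendrocyte (48.1% and 32.2%), all against NSC. The number lower in Astrocyte was 2 with median-of-ratios scaling and 3 with quantile normalization, which also gave 8 higher and 5 lower in Oligodendrocyte.

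Col11a2, a chain of type XI collagen, had 0.56, 0.44 and 0.52 CPM in NSC, 41.96, 39.1 and 43.7 CPM in Astrocyte, 25.5, 17.99 and 21.99 CPM in Neuron, and 51.9 and 51.8 CPM in Oligodendrocyte. It was under 1 CPM in every NSC library and at 17.99 CPM or more at day 4. The rise was 4.82 (SE 0.103, adjusted p 7.36e-14) in Astrocyte, 3.91 (SE 0.103, adjusted p 4.52e-13) in Neuron and 5.13 (SE 0.115, adjusted p 2.15e-13) in Oligodendrocyte. Col11a1, its partner chain, had 28.3, 29.2 and 24.9 CPM in NSC, 78.2, 60.9 and 63.6 CPM in Astrocyte, 79.2, 55.1 and 72.5 CPM in Neuron, and 108 and 97.8 CPM in Oligodendrocyte. It rose by 1.26, 1.28 and 1.87 (SE 0.124, 0.124 and 0.139). The 3 chains of type IX collagen, which sits on the surface of such fibrils, rose in every medium but had their peaks in different ones.

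Col9a1 had 0.29, 0.66 and 0.69 CPM in NSC, 10.6, 8.69 and 9.77 CPM in Astrocyte, 35.5, 34.6 and 35.1 CPM in Neuron, and 14.1 and 13.8 CPM in Oligodendrocyte, highest in Neuron. Col9a2 had 0.49, 0.28 and 0.59 CPM in NSC, 24, 20.1 and 23.6 CPM in Astrocyte, 41.9, 37.4 and 39.6 CPM in Neuron, and 10.7 and 10.2 CPM in Oligodendrocyte, also highest in Neuron. Col9a3 had 8.9, 8.58 and 9.84 CPM in NSC, 63.8, 61.7 and 72.04 CPM in Astrocyte, 25.2, 22.8 and 24.1 CPM in Neuron, and 23.4 and 18.7 CPM in Oligodendrocyte, highest in Astrocyte. For each chain the top group did not overlap the next. Astrocyte minus Neuron was -1.76 (SE 0.104, adjusted p 1.25e-08) for Col9a1, -0.79 (SE 0.097, adjusted p 1.02e-05) for Col9a2 and 1.41 (SE 0.091, adjusted p 2.38e-08) for Col9a3. Col2a1, the type II chain, was highest in Neuron too, at 4.16 ± 0.495 CPM (n = 3, SD), against 0.22 ± 0.02 CPM (n = 3, SD) in NSC, 1.19 ± 0.14 CPM (n = 3, SD) in Astrocyte and 0.565 ± 0.0636 CPM (n = 2, SD) in Oligodendrocyte. Col27a1 and Col20a1 rose in every medium as well, Col20a1 most in Oligodendrocyte (2.17, SE 0.156, adjusted p 1.74e-08) and Col27a1 to similar levels (1.97, 2.21 and 1.89), and Col5a2 fell in Neuron (-0.54) and Oligodendrocyte (-0.99).

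Col12a1, a fibril-associated collagen, behaved differently. It had 24.4, 26.5 and 22.4 CPM in NSC, 31.4, 26.3 and 24.5 CPM in Astrocyte, 2.84, 2.78 and 3.73 CPM in Neuron, and 5.81 and 6.06 CPM in Oligodendrocyte. Astrocyte overlapped NSC, and Neuron and Oligodendrocyte lay far below both. Its log2 fold change was 0.15 in Astrocyte (adjusted p 0.204), -2.63 (SE 0.109, adjusted p 4.41e-11) in Neuron and -1.87 (SE 0.122, adjusted p 6.27e-09) in Oligodendrocyte. Col16a1, of the same family, had 23.2, 25.5 and 26.5 CPM in NSC, 34.1, 31.7 and 32.6 CPM in Astrocyte, 70.7, 64 and 72.7 CPM in Neuron, and 17.6 and 16.3 CPM in Oligodendrocyte. It rose in Neuron (1.43, SE 0.071, adjusted p 3e-10), rose slightly in Astrocyte (0.38, SE 0.071, adjusted p 0.00023) and fell in Oligodendrocyte (-0.54, SE 0.080, adjusted p 2.79e-05), with no overlap between any of the 4 groups. Col22a1, which marks tissue junctions, had 0.68, 0.85 and 0.74 CPM in NSC, 1.97, 2.42 and 2.95 CPM in Astrocyte, 0.39, 0.58 and 0.59 CPM in Neuron, and 7.2 and 8.6 CPM in Oligodendrocyte. Oligodendrocyte was highest, 2.55 (SE 0.126, adjusted p 1.82e-09) above Neuron and 1.37 (SE 0.126, adjusted p 1.07e-06) above Astrocyte.

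The type V chains divided as well. Col5a1 was at 9.27 ± 0.935 CPM (n = 3, SD) in NSC and 9.67 ± 0.92 CPM (n = 3, SD) in Astrocyte, which overlapped, and at 2.99 ± 0.248 CPM (n = 3, SD) in Neuron and 7.06 ± 0.0566 CPM (n = 2, SD) in Oligodendrocyte. Col5a3 was at 8.55 ± 0.277 CPM (n = 3, SD) in NSC, 6.47 ± 0.43 CPM (n = 3, SD) in Astrocyte and 5.56 ± 0.537 CPM (n = 3, SD) in Neuron, and at 12.3 ± 0.82 CPM (n = 2, SD) in Oligodendrocyte, where it rose (0.47, SE 0.095, adjusted p 0.000423). Type VIII collagen forms networks. Col8a1 (chromosome 16, 57624371 to 57754850) had 0.14, 0.31 and 0.08 CPM in NSC, 6.26, 4.99 and 6.67 CPM in Astrocyte, 0.12, 0.02 and 0.15 CPM in Neuron, and 17.2 and 18.2 CPM in Oligodendrocyte. NSC and Neuron overlapped near 0, at no more than 0.31 CPM, and Oligodendrocyte was above Astrocyte. The log2 fold change was 3.99 (SE 0.122, adjusted p 2.72e-12) in Oligodendrocyte and 2.56 (SE 0.109, adjusted p 5.01e-11) in Astrocyte against NSC, and Oligodendrocyte was 4.09 (SE 0.122, adjusted p 2.45e-11) above Neuron. Col8a2 had 0.03, 0.05 and 0.03 CPM in NSC, 10.6, 8.78 and 11.7 CPM in Astrocyte, 1.22, 2.08 and 1.63 CPM in Neuron, and 1.09 and 1.12 CPM in Oligodendrocyte. It was highest in Astrocyte, with 3.45 (SE 0.121, adjusted p 7.08e-12) against NSC and 2.11 (SE 0.121, adjusted p 9.64e-09) against Neuron, so the 2 chains peaked in different media. Col7a1 and Col23a1 rose in every medium, by 0.97 and 0.96 in Oligodendrocyte.

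**Figure D4:**
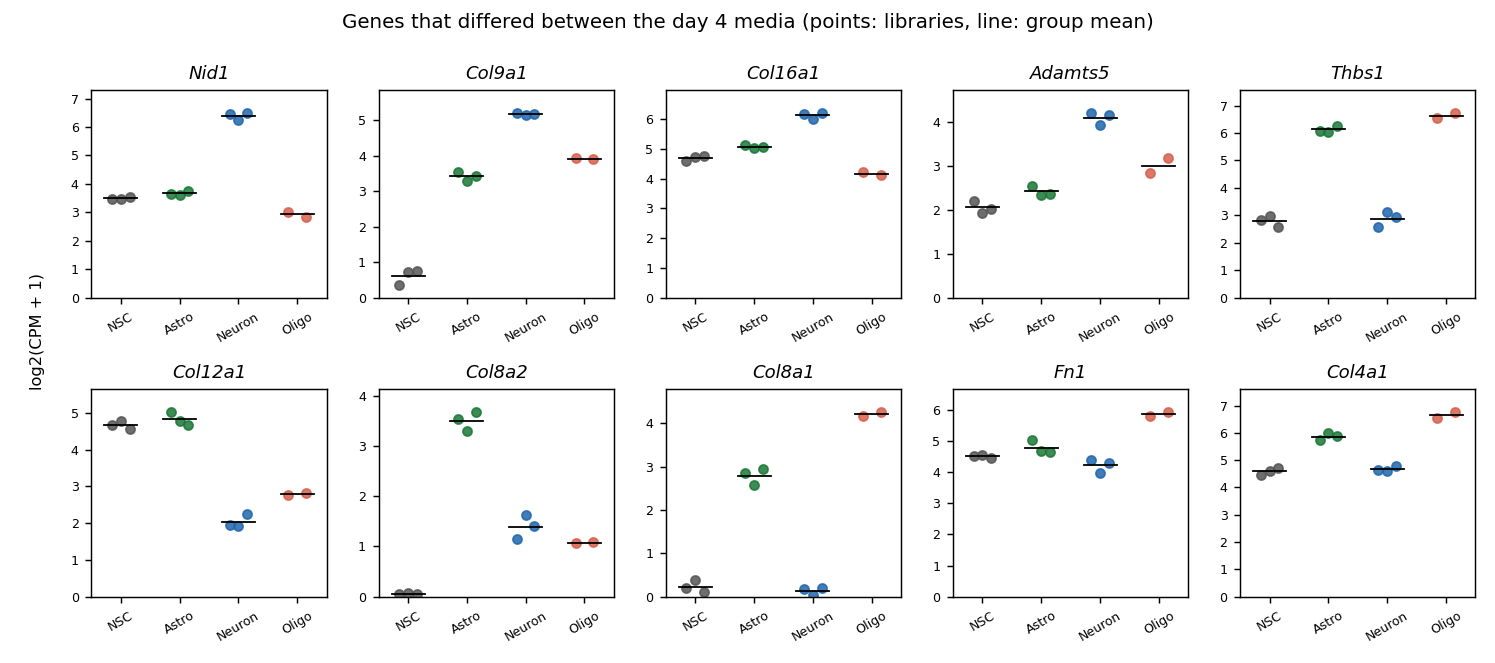
Levels of 10 members that differed between the day 4 media, as log2(CPM + 1) on the y axis, with 1 point per library and a line at the group mean. Nid1, Col9a1, Col16a1 and Adamts5 are highest in Neuron, Col8a2 in Astrocyte, and Thbs1, Col8a1, Fn1 and Col4a1 in Oligodendrocyte, while Col12a1 is high in NSC and Astrocyte.

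Among adhesive glycoproteins, all 4 tested genes were called higher in Astrocyte than in Neuron (40.3% of all genes were), and 3 of the 4 were called higher in Oligodendrocyte than in Neuron (43.9%). Thbs1, a thrombospondin that astrocytes use to promote synapse formation, had 6.08, 6.88 and 5 CPM in NSC, 66.7, 64.9 and 76.3 CPM in Astrocyte, 4.99, 7.61 and 6.72 CPM in Neuron, and 91.4 and 104 CPM in Oligodendrocyte. Neuron overlapped NSC, and both other media were at 64.86 CPM or more. The log2 fold change was 3.34 (SE 0.131, adjusted p 2.19e-11) in Astrocyte and 3.83 (SE 0.146, adjusted p 2.36e-11) in Oligodendrocyte against NSC, and 0.083 in Neuron (adjusted p 0.561). Oligodendrocyte was 3.74 (SE 0.146, adjusted p 2.3e-10) above Neuron. Thbs2 was highest in Astrocyte, at 3.803 ± 0.0321 CPM (n = 3, SD), against 1.79 ± 0.276 CPM (n = 2, SD) in Oligodendrocyte, 0.583 ± 0.302 CPM (n = 3, SD) in Neuron and 0.36 ± 0.0755 CPM (n = 3, SD) in NSC. Thbs3 was at 15.3 ± 2.27 CPM (n = 3, SD) in Astrocyte and between 7.06 and 10.61 CPM in the libraries of the other groups. The opposite-strand gene Mtx1, at up to 31.1 CPM, overlaps 11658 bases of Thbs3, which leaves its values uncertain.

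Fn1 (fibronectin, the main integrin ligand of provisional matrix) had 22.1, 22.6 and 21.2 CPM in NSC, 31.8, 24.8 and 24.1 CPM in Astrocyte, 20.03, 14.9 and 18.9 CPM in Neuron, and 55.4 and 60.4 CPM in Oligodendrocyte. Oligodendrocyte was above every other library. Its log2 fold change was 1.36 (SE 0.126, adjusted p 2.64e-07) against NSC and 1.64 (SE 0.126, adjusted p 1.12e-07) against Neuron. The small changes against NSC in Astrocyte (0.27, adjusted p 0.0401) and Neuron (-0.29, adjusted p 0.0297) were called, but not under several alternatives. The first was lost with median-of-ratios scaling (0.12, adjusted p 0.304), with quantile normalization (adjusted p 0.124) and when any 1 of the NSC libraries was left out (adjusted p 0.0598 to 0.106), and without Astrocyte replicate 1 it was 0.15 (adjusted p 0.212). The second was -0.17 without Neuron replicate 2 (adjusted p 0.11), and was also lost without NSC replicate 1 or 2 (adjusted p 0.068 and 0.0775).

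Sparc and Sparcl1 are secreted modulators of matrix contact that astrocytes make, with opposite roles at synapses. Sparcl1 (hevin, chromosome 5, 104508130 to 104543107) had 8.36, 7.97 and 9.28 CPM in NSC, 429.6, 563 and 539 CPM in Astrocyte, 499, 491 and 482 CPM in Neuron, and 227 and 189 CPM in Oligodendrocyte. Every day 4 library was far above every NSC library. The rise was 5.74 (SE 0.098, adjusted p 1.3e-14) in Astrocyte, 5.69 (SE 0.098, adjusted p 1.55e-14) in Neuron and 4.45 (SE 0.109, adjusted p 4.33e-13) in Oligodendrocyte. Astrocyte and Neuron overlapped, and Oligodendrocyte was below them (-1.24, SE 0.109, adjusted p 4.25e-07 to Neuron). Sparc had 144, 157 and 164 CPM in NSC, 702, 622 and 672 CPM in Astrocyte, 821, 1044 and 989.7 CPM in Neuron, and 512 and 436 CPM in Oligodendrocyte. The order was Neuron, Astrocyte, Oligodendrocyte and NSC, with no overlap between neighbours, and the rise in Neuron was 2.61 (SE 0.095, adjusted p 1.18e-11). Summed astrocyte markers were also lowest in NSC, at 1594 to 1662 CPM, with 3386 to 3819 CPM in Oligodendrocyte, 8989 to 9828 CPM in Neuron and 14186 to 15683 CPM in Astrocyte. By group means, Aldh1l1, Slc1a2, Slc1a3, Aldoc and S100b were higher in Neuron than in Astrocyte, and Gfap, Aqp4 and Gja1 were lower. Aldh1l1 was not lowest in NSC: it averaged 244 CPM there, 233 in Astrocyte, 381 in Neuron and 156 in Oligodendrocyte. The other astrocyte markers on the list had their lowest mean in NSC. The part of these markers in the Sparc and Sparcl1 values was not tested. Bgn (biglycan), the only small leucine-rich proteoglycan tested, was at 2.88 ± 0.684 CPM (n = 3, SD) in Neuron and 1.96 ± 0.387 CPM (n = 3, SD) in Astrocyte, against 0.0633 ± 0.0289 CPM (n = 3, SD) in NSC and 0.21 ± 0.0283 CPM (n = 2, SD) in Oligodendrocyte.

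Of the 9 tested metalloproteases of the Mmp family, 7 were called higher and 2 lower in Astrocyte (48% and 35.6% of all genes), 5 higher and 2 lower in Neuron (43.5% and 39.6%), and 7 higher and 1 lower in Oligodendrocyte (48.1% and 32.2%). Quantile normalization gave 5 higher and 4 lower in Neuron, and with either other scaling 2 were lower in Oligodendrocyte. Mmp15, a membrane-type protease that fell in every medium (chromosome 8, 97876168 to 97898193), had 528, 515 and 544 CPM in NSC, 85.5, 85.1 and 85.2 CPM in Astrocyte, 60.6, 53.1 and 64.8 CPM in Neuron, and 129 and 144 CPM in Oligodendrocyte. All NSC libraries were above all others, and Neuron was lowest. It changed by -2.62 (SE 0.071, adjusted p 5.53e-13) in Astrocyte, -3.14 (SE 0.071, adjusted p 1.22e-13) in Neuron and -1.95 (SE 0.080, adjusted p 4.69e-11) in Oligodendrocyte. Mmp14, the membrane-type protease that activates pro-Mmp2 together with Timp2, had 19.6, 19.2 and 22.8 CPM in NSC, 59.3, 60.2 and 64.1 CPM in Astrocyte, 39.9, 44.5 and 43.6 CPM in Neuron, and 38.4 and 35.9 CPM in Oligodendrocyte. It rose in each medium, most in Astrocyte (1.53, SE 0.074, adjusted p 2.01e-10), and the rises in Neuron and Oligodendrocyte were 1.02 and 0.83 (adjusted p 1.65e-08 and 5.81e-07). Mmp2 (gelatinase A) had 0.91, 0.63 and 0.66 CPM in NSC, 5.37, 4.88 and 4.36 CPM in Astrocyte, 2.82, 2.61 and 2.78 CPM in Neuron, and 2.52 and 1.85 CPM in Oligodendrocyte. It too rose most in Astrocyte (1.76, SE 0.104, adjusted p 1.75e-09). Mmp9 (gelatinase B) did not exceed 0.23 CPM in any library.

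Among the other members of the family, Mmp16, also of the membrane type, rose to similar levels in the 3 media. Mmp16 was at 7.13 ± 1.41 CPM (n = 3, SD) in NSC, 15.5 ± 1.03 CPM (n = 3, SD) in Astrocyte, 18.9 ± 4.25 CPM (n = 3, SD) in Neuron and 19.4 ± 0.636 CPM (n = 2, SD) in Oligodendrocyte, and the day 4 groups were not called against each other. Mmp24 went from 0.91 ± 0.0529 CPM (n = 3, SD) in NSC to 4.66 ± 1.04 CPM (n = 3, SD) in Astrocyte, 3.94 ± 0.489 CPM (n = 3, SD) in Neuron and 7.61 ± 1.48 CPM (n = 2, SD) in Oligodendrocyte. The opposite-strand gene BC029722, at up to 27.8 CPM, shares 637 bases with Mmp24, whose values are uncertain for that reason. Mmp11 (stromelysin-3) rose from 0.693 ± 0.224 CPM (n = 3, SD) in NSC to 8.203 ± 1.44 CPM (n = 3, SD) in Astrocyte, and the opposite-strand gene Chchd10, at up to 50.5 CPM, overlaps 2153 bases of it, which leaves its values uncertain. Mmp17, another membrane-type member, was lower than in NSC (9.58 ± 0.282 CPM (n = 3, SD)) in Astrocyte, at 4.85 ± 0.0473 CPM (n = 3, SD), and slightly in Neuron, at 8.01 ± 0.821 CPM (n = 3, SD) (log2 fold change -0.23, adjusted p 0.0228). Mmp19 was at 4.15 ± 0.532 CPM (n = 3, SD) in Astrocyte and 3.16 ± 0.339 CPM (n = 2, SD) in Oligodendrocyte, with 0.563 ± 0.0961 CPM (n = 3, SD) in Neuron and 0.353 ± 0.0896 CPM (n = 3, SD) in NSC. The opposite-strand gene Tmem198b, at up to 40.2 CPM, overlaps 789 bases of Mmp19, whose values are uncertain for that reason. Mmp28 (epilysin) was at 2.85 ± 0.111 CPM (n = 3, SD) in Astrocyte and 3.92 ± 0.495 CPM (n = 2, SD) in Oligodendrocyte, with 0.483 ± 0.0896 CPM (n = 3, SD) in Neuron and 0.34 ± 0.0889 CPM (n = 3, SD) in NSC. Neuron vs NSC was not called for either (adjusted p 0.0701 and 0.149), and Oligodendrocyte exceeded Neuron by 1.41 (SE 0.113, adjusted p 1.6e-07) for Mmp19 and 1.73 (SE 0.102, adjusted p 9.41e-09) for Mmp28.

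The inhibitors split into a rising and a falling pair. Timp2, a partner of Mmp14 and Mmp2 (chromosome 11, 118162383 to 118217054), had 42.6, 46.01 and 48.3 CPM in NSC, 377, 425 and 379 CPM in Astrocyte, 224, 261 and 251 CPM in Neuron, and 232 and 254 CPM in Oligodendrocyte. Timp3, the inhibitor that stays bound to the matrix (chromosome 10, 85763117 to 85812251), had 26.5, 29.6 and 29.2 CPM in NSC, 264, 237 and 234 CPM in Astrocyte, 335, 318 and 349 CPM in Neuron, and 327 and 313 CPM in Oligodendrocyte. Every day 4 library was above every NSC library for both genes. Timp2 rose by 3.08 (SE 0.076, adjusted p 2.37e-13) in Astrocyte, 2.40 (SE 0.076, adjusted p 2.97e-12) in Neuron and 2.39 (SE 0.085, adjusted p 1.24e-11) in Oligodendrocyte. Timp3 rose by 3.06 (SE 0.067, adjusted p 8.42e-14) in Astrocyte, 3.51 (SE 0.067, adjusted p 3e-14) in Neuron and 3.45 (SE 0.074, adjusted p 1.71e-13) in Oligodendrocyte. Neuron and Oligodendrocyte overlapped for both, with log2 differences of -0.011 (95% interval -0.20 to 0.17) and -0.061 (-0.22 to 0.10), and Astrocyte was above them in Timp2 and below them in Timp3.

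Timp1, the inhibitor induced in reactive glia, had 3.19, 2.53 and 4.18 CPM in NSC, 2.03, 2.48 and 2.21 CPM in Astrocyte, 0.57, 0.54 and 0.55 CPM in Neuron, and 1.21 and 0.88 CPM in Oligodendrocyte. It fell in every medium, least in Astrocyte (-0.39, SE 0.125, adjusted p 0.00997) and most in Neuron (-1.45, SE 0.125, adjusted p 9.88e-08). Without NSC replicate 3 the fall in Astrocyte was not called (log2 fold change -0.25, adjusted p 0.0591). Timp4 had 16.3, 15.5 and 17.1 CPM in NSC, 4.27, 5.32 and 4 CPM in Astrocyte, 8.44, 14.1 and 10.5 CPM in Neuron, and 11.8 and 11.4 CPM in Oligodendrocyte. Its lowest group was Astrocyte, at -1.65 (SE 0.141, adjusted p 8.75e-08) against NSC, while the fall in Oligodendrocyte (-0.46, adjusted p 0.0167) was lost when either of its libraries was left out (adjusted p 0.0587 and 0.0778). Each of Timp1, Timp3 and Timp4 overlaps a synapsin gene on the opposite strand (Syn1, Syn3 and Syn2), which reached 13.6, 3.68 and 43.1 CPM at most, so without knowledge of the strand used in counting the Timp1 and Timp4 values are uncertain.

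Of the 15 tested Adamts proteases, among them Adamts15, which passed the filter through Astrocyte alone, 8 were called lower and 5 higher in Astrocyte against NSC (35.6% and 48% of all genes), 10 lower and 4 higher in Neuron (39.6% and 43.5%), and 8 lower and 5 higher in Oligodendrocyte (32.2% and 48.1%). With quantile normalization Astrocyte had 9 lower and 2 higher. Between media, Oligodendrocyte exceeded Neuron in 11 (43.9% of all genes) and was below it in 2 (23.6%), counts that were 10 and 3 with median-of-ratios scaling and 9 and 3 with quantile normalization. Adamts14, which trims procollagens at their amino end, had 18.6, 18.2 and 17.9 CPM in NSC, 1.81, 1.33 and 1.38 CPM in Astrocyte, 0.65, 0.73 and 0.6 CPM in Neuron, and 1.36 and 0.95 CPM in Oligodendrocyte. No day 4 library exceeded 1.81 CPM. It changed by -2.94 (SE 0.098, adjusted p 4.09e-12) in Astrocyte, -3.53 (SE 0.098, adjusted p 7.55e-13) in Neuron and -3.16 (SE 0.110, adjusted p 9.33e-12) in Oligodendrocyte. Adamts3, of the same subfamily, fell from 8.01 ± 0.159 CPM (n = 3, SD) in NSC to 2.08 ± 0.507 CPM (n = 3, SD) in Astrocyte, 0.967 ± 0.253 CPM (n = 3, SD) in Neuron and 3 ± 0.283 CPM (n = 2, SD) in Oligodendrocyte. Adamts7 and Adamts12, which are related to each other and cut cartilage oligomeric matrix protein, fell from 41.3 ± 1.07 CPM (n = 3, SD) to between 4.23 and 12.84 CPM and from 12.6 ± 2.06 CPM (n = 3, SD) to between 1.18 and 4.76 CPM in the day 4 libraries. The gene Tbc1d2b, at up to 107.1 CPM, overlaps Adamts7, whose values are uncertain for that reason. Adamts6 and Adamts10 were also lower in every medium, at -1.31 and -1.35 in Astrocyte.

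The lectican-cutting proteases did not move as a group. Adamts4 had 20.2, 20.5 and 18.1 CPM in NSC, 20.4, 17.9 and 16.3 CPM in Astrocyte, 54.9, 38.7 and 57.4 CPM in Neuron, and 63.9 and 70.5 CPM in Oligodendrocyte. Astrocyte overlapped NSC, and Neuron and Oligodendrocyte were above both. It rose by 1.30 (SE 0.127, adjusted p 3.87e-07) in Neuron and 1.72 (SE 0.142, adjusted p 7.24e-08) in Oligodendrocyte, and Oligodendrocyte was 1.83 (SE 0.142, adjusted p 2.24e-07) above Astrocyte. Adamts5 had 3.61, 2.81 and 3.05 CPM in NSC, 4.84, 4.05 and 4.15 CPM in Astrocyte, 17.3, 14.3 and 16.9 CPM in Neuron, and 6.12 and 8.02 CPM in Oligodendrocyte. Neuron was highest, 2.05 (SE 0.114, adjusted p 9.71e-10) above NSC. The rise in Astrocyte (0.36, adjusted p 0.0091) was lost with median-of-ratios scaling (0.24, adjusted p 0.0591) and turned to -0.22 with quantile normalization (adjusted p 0.0991).

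Adamts1 had 24.6, 24.99 and 23.5 CPM in NSC, 14.1, 14.01 and 15.5 CPM in Astrocyte, 12.97, 11.2 and 11.98 CPM in Neuron, and 15.8 and 17.1 CPM in Oligodendrocyte. It was lower in all 3 media, at -0.71, -0.96 and -0.54 (SE 0.075, 0.075 and 0.084). Adamts9 had 53.4, 55.7 and 44.1 CPM in NSC, 70.6, 76.1 and 64.6 CPM in Astrocyte, 25.7, 20.04 and 24.7 CPM in Neuron, and 56.7 and 54.2 CPM in Oligodendrocyte. It was higher than NSC in Astrocyte (0.46, SE 0.103, adjusted p 0.000944) and lower in Neuron (-1.09, SE 0.103, adjusted p 2.76e-07), and Oligodendrocyte overlapped NSC. Adamts8 was at 3.89 ± 0.255 CPM (n = 3, SD) in NSC, 1.95 ± 0.263 CPM (n = 3, SD) in Astrocyte, 0.1 ± 0.0917 CPM (n = 3, SD) in Neuron and 0.66 ± 0.141 CPM (n = 2, SD) in Oligodendrocyte. Adamts20 was lower in Neuron (-0.83, SE 0.112, adjusted p 1.09e-05) and was not called in the other media. Adamts16 and Adamts17 had their highest means in Oligodendrocyte. For Adamts16 the call against Astrocyte was lost when any 1 of the Astrocyte libraries was left out (adjusted p 0.0592 to 0.083). It was also lost with no filter (log2 fold change 0.51, adjusted p 0.102) and with a pseudocount of 0.1 (adjusted p 0.111). Adamts16 had 0.57, 0.82 and 0.89 CPM in NSC, 8.4, 9.25 and 9.05 CPM in Astrocyte, 3.19, 1.35 and 2.85 CPM in Neuron, and 13.2 and 13.02 CPM in Oligodendrocyte, with 2.07 (SE 0.188, adjusted p 5.5e-07) for Oligodendrocyte against Neuron. Adamts17 had 1.2, 1.41 and 1.25 CPM in NSC, 2.16, 2.27 and 2.11 CPM in Astrocyte, 2.64, 1.84 and 2.64 CPM in Neuron, and 9.46 and 10.8 CPM in Oligodendrocyte, with 1.73 (SE 0.116, adjusted p 3.28e-08) for the same comparison.

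A member is called selective for a group where it was at least 2-fold higher than in each of the 3 others and called each time. NSC had 13 (7.65% of all tested genes), the same 13 listed above as at least 2-fold lower in every medium. Astrocyte had 3 (1.31%): Col8a2, Col9a3 and Col4a4. Neuron had 5 (0.824%): Nid1, Col9a1, Col2a1, Adamts5 and Col16a1. Oligodendrocyte had 5 (1.87%): Adamts17, Acan, Col8a1, Col22a1 and Fn1. Acan was tested only because Oligodendrocyte expressed it, so its place in this set follows from the filter. By their highest mean, 26 of the 85 tested members were at their top in NSC, 22 in Astrocyte, 13 in Neuron and 24 in Oligodendrocyte. These shares, 30.6%, 25.9%, 15.3% and 28.2%, were near those of all tested genes, 33.7%, 21.7%, 18.3% and 26.2%. In 7 members (7.78% of all genes) calls against NSC went in opposite directions in different media: Nid1, Lamc1, Fn1, Thbs3, Col16a1, Col5a3 and Adamts9.

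Receptors of the matrix were followed with a separate list of 24 genes, of which 22 were tested. In Astrocyte 12 were called higher and 7 lower (48% and 35.6% of all genes), in Neuron 10 and 9 (43.5% and 39.6%), and in Oligodendrocyte 14 and 7 (48.1% and 32.2%), all against NSC, so the counts in Astrocyte and Neuron were near the background. Itga4, an integrin chain that binds fibronectin and Vcam1, fell from 44.8 ± 6.75 CPM (n = 3, SD) in NSC to 0.500 ± 0.155 CPM (n = 3, SD) in Astrocyte (log2 fold change -4.93, SE 0.119, adjusted p 1.83e-13). Itga8, a chain that binds fibronectin and tenascin, was at 55.7 ± 9.74 CPM (n = 2, SD) in Oligodendrocyte and 2.22 ± 0.157 CPM (n = 3, SD) in Astrocyte (4.13, SE 0.139, adjusted p 1.90e-10). Itga7, a laminin receptor chain, was at 102.7 ± 2.13 CPM in Astrocyte and 14.7 ± 1.10 CPM in Neuron (n = 3 each, SD; 2.73, SE 0.077, adjusted p 3.05e-11). Itga3, another laminin receptor chain, rose from 0.653 ± 0.214 to 14.3 ± 1.62 CPM in Astrocyte (n = 3 each, SD; 3.22, SE 0.121, adjusted p 1.44e-11).

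Genes that hydroxylate, trim and crosslink collagen were a second list, with 16 of 17 tested. Against NSC, 12 were called higher and 2 lower in Astrocyte (48% and 35.6% of all genes), 7 and 5 in Neuron (43.5% and 39.6%), where the share higher was that of all genes, and 11 and 2 in Oligodendrocyte (48.1% and 32.2%). Compared with Neuron, 12 were higher and 0 lower in Astrocyte (40.3% and 22% of all genes), and 12 higher and 2 lower in Oligodendrocyte (43.9% and 23.6%), with 4 genes at an adjusted p of 0.05 or more in the first comparison. P4ha3, a prolyl hydroxylase subunit, rose from 0.333 ± 0.0493 to 26.9 ± 1.51 CPM in Astrocyte (n = 3 each, SD; log2 fold change 4.39, SE 0.111, adjusted p 2.84e-13). Lox, which crosslinks collagen and elastin, was at 10.1 ± 0.0919 CPM (n = 2, SD) in Oligodendrocyte and 0.0733 ± 0.0551 CPM (n = 3, SD) in NSC (3.37, SE 0.117, adjusted p 9.01e-12). Tgm2, a transglutaminase, was at 8.89 ± 0.631 CPM in Astrocyte and 0.660 ± 0.101 CPM in Neuron (n = 3 each, SD; 2.57, SE 0.086, adjusted p 7.17e-11).

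Vessel cells are a usual source of basement membrane in brain. Endothelial markers were low and summed to between 1.22 and 7.37 CPM in a library, with 6 of 8 under 0.5 CPM in every library. Pericyte and smooth muscle markers summed to 50.8 to 53.2 CPM in NSC, 85.1 to 95.2 in Astrocyte, 39.4 to 56.2 in Neuron and 42.3 to 48.5 in Oligodendrocyte, and 4 of 8 were under 0.5 CPM in every library. Acta2, a smooth muscle actin, was at 42.01 CPM in Astrocyte and 8.36, 2.94 and 9.86 CPM in NSC, Neuron and Oligodendrocyte on average. Notch3, a receptor of mural cells, averaged 43.04 CPM in NSC, 45.5 in Astrocyte, 45.3 in Neuron and 34.6 in Oligodendrocyte. Microglial markers summed to 0.29 to 1.32 CPM. The part of such cells in the basement membrane values was not tested.

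The 42 members under the filter stayed at or below 1.09 CPM, reached by Lamb3. They were 12 Mmp genes, 4 Adamts genes, 3 laminin chains, 2 link proteins, Dcn, Lum, Tnn, Thbs4 and 3 sets of collagens: 6 fibrillar or fibril-associated, 1 of basement membranes and 10 others, among them all 6 type VI chains. Mmp7, Mmp8, Mmp10, Mmp20 and Mmp27 were listed at 0 in every library. At this depth the lowest level that could be seen was 1 read, so these 5 genes were not detected rather than shown to be absent. The rest of the 42 were above 0 in at least 1 library. Members just inside the filter were Lama1, with 0.98 to 1.22 CPM in NSC, and Adamts15, with 0.96 to 1.15 CPM in Astrocyte. Members just outside it included Lamb3, Adamts19 and Hapln2, which had 1.09, 1.03 and 1.01 CPM in their highest library.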

How the data were processed

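Poly(A) RNA libraries had been made with the TruSeq Stranded mRNA kit and sequenced on an Illumina HiSeq, per the labels' protocols. The authors deposited CPM values (37991 genes, 11 libraries, 2 decimals) beside group mean and SD columns (other values, not used), and gene coordinates on build mm9, per the file headers. The submitters' processing notes name bcl2fastq 1.8.4, TopHat2 2.0.8, HTSeq 0.6.1, edgeR 3.2.4, R 3.0.0, HOMER and build NCBIM37, with no roles. Whether counting used the strand is not given in the sources used here. Listed genes summed to 74.95% to 80.25% of the CPM denominator, which therefore held other reads too. Whole reads could not be recovered from the rounded CPM, so no count model was run.

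Values were put on a log2(CPM + 1) scale. Genes reaching 1 CPM in 2 or more libraries were fitted with limma 3.58.1 in R 4.3.3 (1 mean per group over all 11 libraries, eBayes with trend, 7 residual and 5.96 prior degrees of freedom), 2-sided, with Benjamini-Hochberg adjustment within each of 6 comparisons. The script was tested on simulated data. Between libraries of a group, the variance was 14.3 to 49.5 times the counting variance, so the replicates differed by more than sampling noise.

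Members, role groups and lists (matrix receptors, collagen processing, proteoglycans, hyaluronan, protease regulators, and markers of 10 cell states) were chosen with earlier results of these data known. Members named with their values for each library followed this rule: Fbln2 and Nid1; in each comparison the 4 called members that rose most and the 4 that fell most, given a mean of 5 CPM or more in a group and no overlap; the member with the highest mean in each role group; and a set of well-known brain matrix and protease genes. For the lists, up to 3 genes with the largest change against NSC and 2 between day 4 groups were named, of which some are printed. Fbn1, Lamb1, Lamb2, Nid2, Col4a3, Col4a4 and Adamts17 were added after their values were seen. Alternatives were pseudocounts of 0.1 and 5, no filter and a filter at 5 CPM, median-of-ratios and quantile scaling, eBayes without trend, only the 2 groups compared, a replicate block, and each library left out.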

Additional observations from a re-analysis of the deposited data

Results flagged for a closer look

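In 7 members (8.24% of those tested), calls against NSC went in opposite directions in 2 media, a share near that of all tested genes (7.78%). The direct comparison of those media was called by limma as well, which that choice makes likely. The comparisons with NSC share its 3 libraries. Nid1 was at -3.47 on the log2 scale in Oligodendrocyte vs Neuron (adjusted p 1.07e-11), from -0.56 and 2.91 against NSC. Col16a1 was at -1.97 in Oligodendrocyte vs Neuron (adjusted p 3.12e-10) and at -0.92 in Oligodendrocyte vs Astrocyte (adjusted p 6.67e-07), from -0.54, 1.43 and 0.38 in Oligodendrocyte, Neuron and Astrocyte against NSC. Lamc1 was at 1.05 in Oligodendrocyte vs Neuron (adjusted p 6.84e-06) and 1.38 in Oligodendrocyte vs Astrocyte (adjusted p 9.46e-07), from 0.47, -0.57 and -0.90 against NSC.

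Col5a3, a type V collagen chain, was at 1.02 in Oligodendrocyte vs Neuron (adjusted p 6.96e-07) and 0.83 in Oligodendrocyte vs Astrocyte (adjusted p 8.62e-06), from 0.47, -0.55 and -0.36 against NSC. Fn1 was at 1.645 in Oligodendrocyte vs Neuron (adjusted p 1.12e-07) and 0.56 in Astrocyte vs Neuron (adjusted p 0.00077), from 1.36, 0.27 and -0.29 against NSC in Oligodendrocyte, Astrocyte and Neuron, the last 2 of which did not hold when single libraries were left out. Thbs3, with values left uncertain by the overlap with Mtx1, was at 0.92 in Astrocyte vs Neuron (adjusted p 3.61e-06), from 0.61 and -0.31 against NSC. Adamts9 was at 1.55 in Astrocyte vs Neuron (adjusted p 3.42e-08), from 0.46 and -1.09 against NSC.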

How the results depend on the processing

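The named members gave 276 results with 3966 values under alternatives, of which 3851 kept direction and side of the threshold, 74 lost a call and 38 gained one. Quantile normalization in Astrocyte vs NSC reversed the sign of 3: Acan (-0.48), Adamts5 (-0.22, adjusted p 0.0991) and Fbln5 (-0.075, adjusted p 0.595). Acan passed the filter through Oligodendrocyte alone, and it averaged 0.18 CPM in NSC and 0.183 CPM in Astrocyte. At levels this low and this close, its value is given with no test, and no change of direction is read from it. Counts of 2-fold changes moved most with the pseudocount, which by construction shrinks low genes. With 5 they were 23 higher and 11 lower in Astrocyte vs NSC, 19 higher in Neuron vs NSC, 8 higher and 6 lower in Astrocyte vs Neuron, 13 higher and 5 lower in Oligodendrocyte vs Neuron, and 7 higher and 5 lower in Oligodendrocyte vs Astrocyte, and with 0.1 the last was 14 lower. With a filter at 5 CPM, which tests fewer genes, Astrocyte vs Neuron had 13 higher. With each library left out in turn, members called and those changed at least 2-fold were 75 to 77 called, 35 to 37 higher and 16 to 17 lower in Astrocyte vs NSC, 69 to 75 called, 30 to 31 higher and 18 to 20 lower in Neuron vs NSC, 76 to 79 called, 35 to 38 higher and 18 to 19 lower in Oligodendrocyte vs NSC. They were 71 to 75 called, 19 to 22 higher and 11 to 12 lower in Astrocyte vs Neuron, 57 to 67 called, 19 to 23 higher and 11 to 12 lower in Oligodendrocyte vs Neuron, 58 to 67 called, 13 to 16 higher and 7 to 10 lower in Oligodendrocyte vs Astrocyte. Whether the replicate numbers pair the samples could not be settled. Deviations of same-numbered libraries from their group means correlated at -0.505 to 0.415, over 0.1 in 6 of 15 pairs. Those of libraries with different numbers correlated at -0.536 to 0.541, over 0.1 in 7 of 30 pairs. Deviations within a group of 2 or 3 libraries cancel out, so these correlations are tied to each other and cannot decide it. With the replicate block, 273 of the 276 results kept their call, and Nid1 in Astrocyte vs NSC (0.17, adjusted p 0.0343), Col22a1 in Neuron vs NSC (-0.21, adjusted p 0.0497) and Mmp2 in Oligodendrocyte vs Neuron (-0.27, adjusted p 0.0365) gained one. With 2 or 3 libraries a group, and 1 read worth 0.0151 to 0.0203 CPM, values under about 0.1 CPM rest on few reads.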

Other observations

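Of 14 tested cell-surface and other proteoglycans outside the symbol rule, 8 were called lower and 4 higher in Astrocyte (35.6% and 48% of all genes). In Neuron 7 were lower and 6 higher (39.6% and 43.5%), which was near the background, and in Oligodendrocyte 9 and 4 (32.2% and 48.1%), all against NSC. Sdc1, a syndecan, fell from 44.5 ± 2.54 CPM in NSC to 3.99 ± 0.115 CPM in Neuron (n = 3 each, SD; log2 fold change -3.19, SE 0.071, adjusted p 1.10e-13 by limma). Sdc4, another syndecan, rose from 39.4 ± 2.52 to 248.7 ± 10.7 CPM in Astrocyte (n = 3 each, SD; 2.63, SE 0.080, adjusted p 1.64e-12), while Sdc3 fell from 372.8 ± 11.3 to 81.4 ± 5.82 CPM there (n = 3 each, SD; -2.18, SE 0.077, adjusted p 7.17e-12). Cspg5 (neuroglycan C) was at 84.1 ± 3.42 CPM (n = 2, SD) in Oligodendrocyte and 414.9 ± 63.3 CPM (n = 3, SD) in Neuron (-2.28, SE 0.102, adjusted p 7.37e-10). Gpc4, a glypican, was at 65.6 ± 4.91 CPM (n = 2, SD) in Oligodendrocyte and 15.8 ± 2.34 CPM (n = 3, SD) in Neuron (1.99, SE 0.108, adjusted p 4.17e-09).

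Of 10 other regulators of matrix proteases 9 were tested. Against NSC, 4 were called higher and 4 lower in Astrocyte (48% and 35.6% of all genes), 4 and 4 in Neuron (43.5% and 39.6%), and 3 and 3 in Oligodendrocyte (48.1% and 32.2%). A2m (alpha-2-macroglobulin, which traps proteases) rose from 65.4 ± 0.424 CPM in NSC to 599.5 ± 37.0 CPM in Astrocyte (n = 3 each, SD; 3.18, SE 0.060, adjusted p 2.97e-14) and was at 142.5 ± 6.42 CPM (n = 3, SD) in Neuron. Htra1, a secreted serine protease, rose from 16.8 ± 0.665 to 80.3 ± 7.34 CPM in Neuron (n = 3 each, SD; 2.19, SE 0.075, adjusted p 5.73e-12). Of 7 genes of hyaluronan synthesis and breakdown 3 were tested, too few to compare with the shares of all genes. Against NSC, 1 was called higher and 2 lower in Astrocyte (48% and 35.6% of all genes), 2 and 1 in Neuron (43.5% and 39.6%), and 1 and 1 in Oligodendrocyte (48.1% and 32.2%). Has2, a hyaluronan synthase, was at 2.89 ± 0.601 CPM in Neuron and 0.620 ± 0.0794 CPM in Astrocyte (n = 3 each, SD; Astrocyte minus Neuron -1.25, SE 0.106, adjusted p 3.24e-07). Hyal1, a hyaluronidase, rose from 2.17 ± 0.113 CPM (n = 3, SD) in NSC to 10.2 ± 1.117 CPM (n = 2, SD) in Oligodendrocyte (1.81, SE 0.159, adjusted p 1.45e-07).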
